A study of Homo sapiens with 8 samples.

Results

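Nuclear pore genes encode the nucleoporins and their close partners, and 31 of them were taken by gene symbol from the array design. Of the 31, 30 had a probe under their own name among 43317 genes on the array. POM121C had none, and the POM121 probe used here matches both POM121 and POM121C, so their RNAs could not be told apart. The probes of AHCTF1 also match the pseudogene AHCTF1P1. NUPL1 and NUPL2 are the older names of NUP58 and NUP42.

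The nuclear pore complex is the large protein channel through the nuclear envelope. An outer ring (the Y complex) and an inner ring form its scaffold, membrane nucleoporins anchor it, and disordered repeats rich in phenylalanine and glycine fill the central channel and bind transport receptors that carry cargo under control of the GTPase Ran. Filaments on the cytoplasmic face take part in mRNA export, and a basket faces the nucleus. Several nucleoporins also act at kinetochores in mitosis, and proliferating cells build new pores as they grow and divide.

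Each of the 8 arrays compared treated cells (Cy5) with untransfected mock cells of the same line (Cy3), with 1 array for each treatment. PC3 cells, a prostate cancer line, received bisamide for 24 h or for 48 h on 2 arrays, and miR-125b-1-3p on another. Bisamide is a small molecule that binds the nuclear protein pirin and blocks the heat shock factor 1 (HSF1) stress pathway. C4-2 cells, a castration-resistant prostate cancer line of LNCaP descent, received miR-199-3p. The renal cancer line 786-O received miR-532-5p or miR-532-3p, and the bladder cancer line T24 received miR-140-5p or miR-140-3p, the strands of 1 hairpin in each line. Both arrays of 786-O share a mock, as do both of T24. The time after miRNA transfection, the doses and any solvent or reagent in the mock were not given in the labels, so an effect of the transfection itself cannot be told apart from that of the miRNA. The study looked at HSF1-dependent genes under bisamide, and nucleoporins belong to the heat stress pathway list it drew on.

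The 6 miRNAs are printed because they are the treatments set against the pore genes. They come from RefSeq (GRCh38.p14), with the seed, bases 2 to 8, in capitals. The label miR-199-3p matched both miR-199a-3p and miR-199b-3p, which have the same sequence, and the 6 seeds were all different.
miR-199-3p: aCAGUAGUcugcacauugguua
miR-125b-1-3p: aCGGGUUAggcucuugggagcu
miR-532-5p: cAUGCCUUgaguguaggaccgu
miR-532-3p: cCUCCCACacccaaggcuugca
miR-140-5p: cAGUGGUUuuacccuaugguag
miR-140-3p: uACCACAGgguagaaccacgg

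On an array, 15442 to 19241 genes passed the scanner's background test in both channels, no spot was saturated, and the log2 ratio of repeated spots had an SD of 0.039 to 0.053 over 300 probes, which covers spot error and not the spread between cultures. Marker genes in the mock channel went partly against the labels. KLK3, the prostate-specific antigen gene, read 13592 in C4-2 and 21 to 23 elsewhere. On both arrays labelled T24 the bladder markers GATA3, UPK2 and KRT5 were not well above background, while the renal lineage genes PAX2 (551 and 619) and PAX8 (390 and 423) read higher than in 786-O (PAX2 124 and 112, PAX8 235 and 239). CA9 was not well above background on any array. The PC3 mocks were not alike, since the epithelial gene EPCAM read 121 and 119 on the bisamide arrays and 476 on the miR-125b-1-3p array. The leukocyte gene PTPRC read at most 37 and the endothelial gene PECAM1 at most 36. Whether these differences have a part in the pore results was not tested.

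Pore gene ratios lay close to 0 under every treatment. Of 240 member values (30 genes on 8 arrays), 238 were measured in both channels. Of these, 10 were lower than −0.5 on the log2 scale, 0 were higher than 0.5 and 228 lay between. No member passed 1.0 or 1.5 in size on any array, where 2.06% and 0.438% of all genes measured did so on at least 1 array. This held with the offset of 50 that damps the ratios of dim probes. With the scanner's own ratio NUPL1 was −1.93 with miR-532-5p, NUP210 −1.20 with miR-140-5p, and NUP54 −1.12 and NUP43 −1.11 with miR-532-3p. NUP210 gave the missing values, since it was not well above background on the 786-O arrays.

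**Figure D1:**
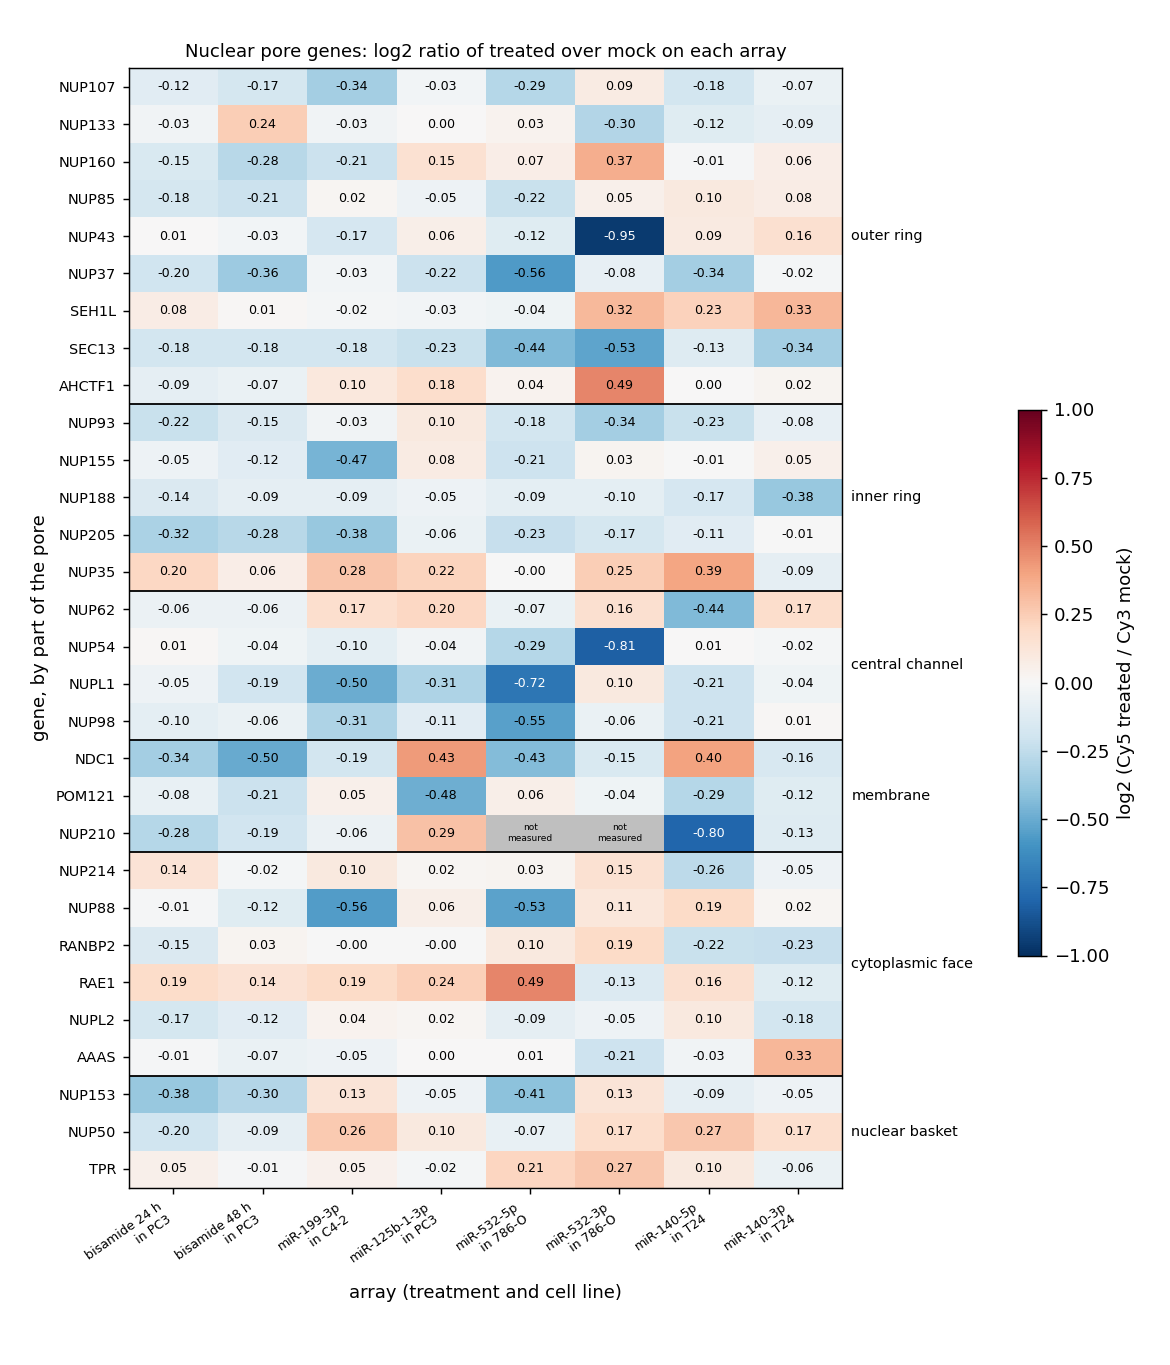
Log2 ratio of treated (Cy5) over mock (Cy3) signal for 30 nuclear pore genes (rows, by part of the pore) on 8 arrays (columns), blue for lower and red for higher in treated cells, with grey where NUP210 was not well above background. The darkest cell is NUP43 at −0.95 with miR-532-3p, and 7 of the 10 values below −0.5 lie on the 786-O arrays. Of all genes measured, 3.67% with miR-532-5p and 3.83% with miR-532-3p lay below −0.5, larger shares than on any other array.

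Under bisamide most members sat slightly below mock. At 24 h the median member ratio was −0.09, against 0.01 for all genes, and 23 of 30 members were below 0, as were 45.8% of all genes. At 48 h the median was −0.10 and 25 of 30 were below 0. At 24 h 0 members were lower than −0.5, where 0.411% of all genes were, and 0 were higher than 0.5 (1.05% of all genes). At 48 h 1 member was lower (0.883% of all genes) and 0 were higher (0.91%). That member was NDC1, a transmembrane anchor of the pore, at −0.50.

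The position of the median depended on the dye normalisation. With each array centred on its median in place of loess, the median of all genes measured shifted to 0.45 at 24 h and 0.44 at 48 h, and relative to that the members lay above it, by 0.12 and 0.08. The sign turned in the same way with both strands of miR-140 (0.20 for 5p and 0.21 for 3p), as well as on the miR-125b-1-3p (0.21) and miR-199-3p (0.0249) arrays. With miR-532-5p the median stayed below all genes, at −0.15 against −0.09. Under loess with other background corrections, the scanner's own ratio and the mean over probes, the bisamide medians stayed below 0.

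**Figure D2:**
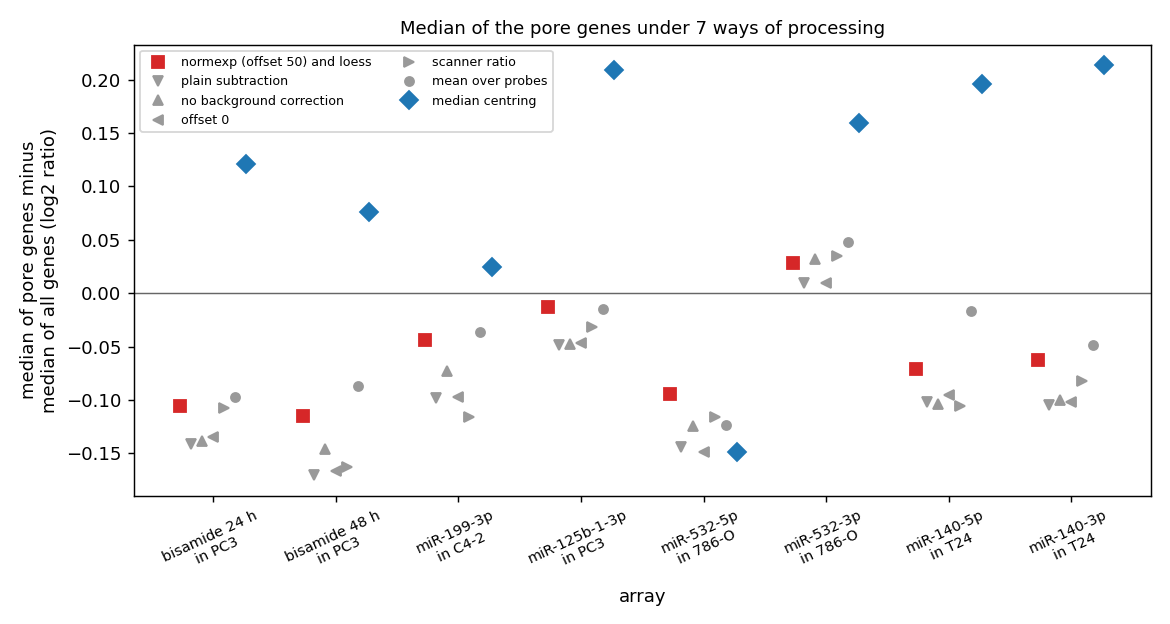
Median log2 ratio of the pore genes minus that of all genes measured (vertical axis) on each array (horizontal axis) under 7 ways of making the ratios. Red squares are the values used here, grey marks 5 alternatives and blue diamonds median centring in place of loess, which puts the bisamide medians at 0.12 and 0.08 and not below 0.

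Cell cycle genes stood lower on the same arrays. Of 18 such genes, 18 were below 0 at both bisamide times (45.8% of all genes), with medians of −0.37 and −0.39 (−0.15 and −0.20 with median centring). At 24 h 4 were lower than −0.5 (0.411% of all genes), and at 48 h 7 were (0.883%). The lowest was TYMS, thymidylate synthase, at −0.65 at 24 h, and CDK1, the mitotic kinase, at −0.87 at 48 h. With miR-532-5p, where the pore median was −0.09, the cell cycle median was −0.54 and 11 of 18 were lower than −0.5 (3.67% of all genes). The cell cycle median lay above the pore median with miR-199-3p (0.05 against −0.03) and miR-140-3p (0.09 against −0.05). It lay below on the other miRNA arrays. The part of proliferation in the pore values was not tested.

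**Figure D3:**
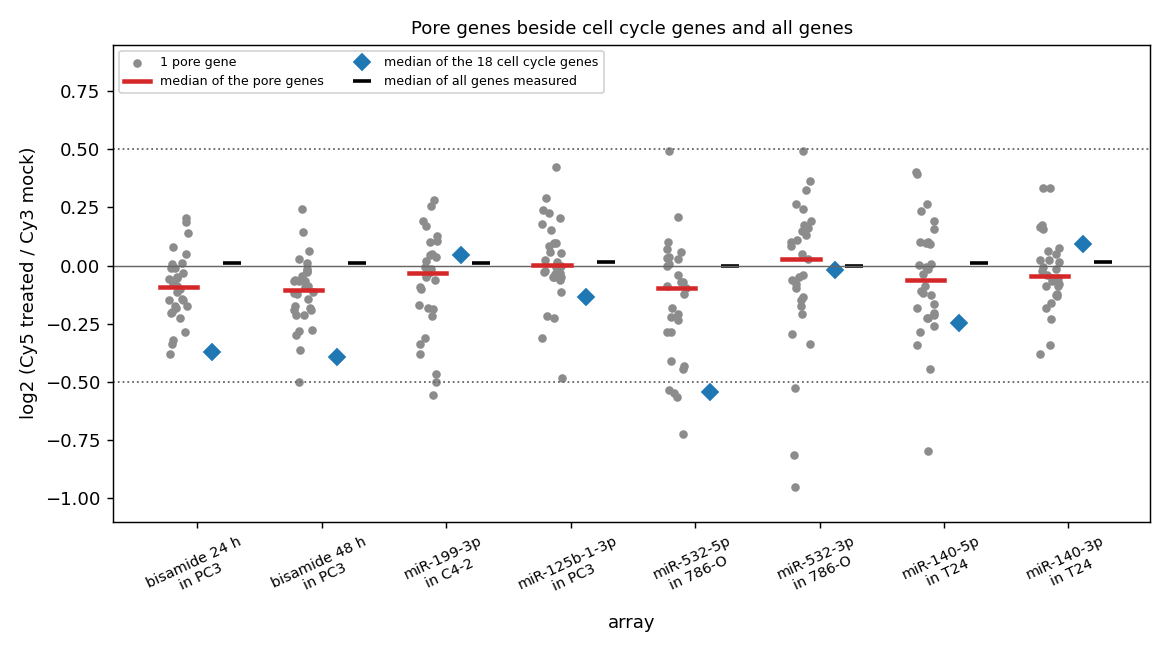
Log2 ratio of treated over mock (vertical axis) for each pore gene (grey points) on each array (horizontal axis), with the median of the pore genes (red bar), of 18 cell cycle genes (blue diamond) and of all genes measured (black bar), and dotted lines at −0.5 and 0.5. The cell cycle medians of −0.37, −0.39 and −0.54 on the bisamide and miR-532-5p arrays lie well below the pore medians.

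For the miRNA arrays, the count of members past 0.5 is set beside the share of all genes measured. With miR-199-3p the median was −0.03, 1 member was lower than −0.5 (2.74% of all genes) and 0 were higher (1.75%). With miR-125b-1-3p the median was 0.00, 0 members were lower (0.883%) and 0 higher (1.77%). With miR-532-5p 20 of 29 members were below 0, as were 49.9% of all genes, 4 were lower than −0.5, where 3.67% of all genes were, and 0 were higher (3.61%). With miR-532-3p the median was 0.03, 3 of 29 were lower (3.83%) and 0 higher (1.71%). With miR-140-5p the median was −0.06, 1 member was lower (2.89%) and 0 higher (1.74%). With miR-140-3p the median was −0.05, 0 were lower (1.1%) and 0 higher (0.992%).

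In the outer ring, the scaffold that shapes the membrane and recruits other nucleoporins, the member furthest from mock was NUP43, a propeller subunit of the Y complex. Its log2 ratios were 0.01 and −0.03 with bisamide at 24 h and 48 h, −0.17 in C4-2, 0.06 with miR-125b-1-3p, −0.12 and −0.95 with the 5p and 3p strands of miR-532, and 0.09 and 0.16 with those of miR-140. The miR-532-3p array stood alone, with raw signals of 404 in mock and 256 in treated cells, and the value stayed past −0.5 under all 7 alternatives (−1.12 to −0.53). A second NUP43 probe read −0.10 on that array.

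SEC13, which also coats secretory vesicles, was below 0 on all 8 arrays, from −0.53 with miR-532-3p and −0.44 with miR-532-5p to −0.13 with miR-140-5p. Its −0.53 rested on loess, since raw signal was 2391 in mock and 2564 in treated cells, and it was −0.08 with median centring. Of 2 other SEC13 probes measured on that array, 1 read 0.02 and the other −0.35, and with miR-532-5p they read 0.09 and −0.45. NUP37 was also below 0 on all 8 arrays, from −0.02 with miR-140-3p to −0.56 with miR-532-5p, where raw signal went from 194 in mock to 103 in treated cells. It read −0.20 and −0.36 with bisamide.

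NUP133 differed most between the bisamide times, at −0.03 at 24 h and 0.24 at 48 h, where it was the highest member. Both other NUP133 probes measured at both times differed less, with −0.02 and −0.07 for 1 and 0.03 and 0.05 for the other. The other values of the probe used were −0.03 in C4-2, 0.00 with miR-125b-1-3p, 0.03 and −0.30 with the 5p and 3p strands of miR-532, and −0.12 and −0.09 with those of miR-140. AHCTF1 (ELYS), which seeds pore assembly on chromatin after mitosis, was the highest member with miR-532-3p, at 0.49, and lay between −0.09 and 0.18 on the other arrays. A second AHCTF1 probe read −0.0022 with miR-532-3p. NUP107, NUP160, NUP85 and SEH1L stayed between −0.34 and 0.37 on all arrays.

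In the inner ring 0 of 5 members passed 0.5. NUP188 and NUP205, large scaffold proteins, were below 0 on all 8 arrays. NUP188 ranged from −0.05 with miR-125b-1-3p to −0.38 with miR-140-3p, where it was the lowest member. NUP205 ranged from −0.01 to −0.38, with −0.32 and −0.28 under bisamide. NUP35 (also NUP53), which contacts the membrane, was the highest member with bisamide at 24 h (0.20) and with miR-199-3p (0.28), and read 0.06 at 48 h, 0.22 with miR-125b-1-3p, 0.00 and 0.25 with the 5p and 3p strands of miR-532, and 0.39 and −0.09 with those of miR-140. A second NUP35 probe read −0.05 and −0.15 with bisamide, −0.02 in C4-2 and −0.10 with miR-532-3p. NUP155 was lowest with miR-199-3p, at −0.47, and NUP93 with miR-532-3p, at −0.34.

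Of the 6 parts of the pore on the 8 arrays, the central channel held the lowest median, −0.42 over 4 genes with miR-532-5p, with 4 of 4 below 0. NUPL1, a repeat protein that joins NUP62 and NUP54 in the channel, was the lowest member there. Its ratios were −0.05 and −0.19 with bisamide, −0.50 with miR-199-3p (not past −0.5), −0.31 with miR-125b-1-3p, −0.72 and 0.10 with the 5p and 3p strands of miR-532, and −0.21 and −0.04 with those of miR-140. On the miR-532-5p array raw signal was 86 in mock and 32 in treated cells. NUP98, a repeat protein with roles in mRNA export, was −0.55 with miR-532-5p and between −0.31 and 0.01 elsewhere. NUP54 was −0.81 with miR-532-3p and −0.29 with miR-532-5p, and stayed between −0.10 and 0.01 on the other 6 arrays. NUP62 was lowest with miR-140-5p, at −0.44.

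Second probes disagreed with these values, most of all for NUPL1. Of 125 pairs of values (18 second probes of 13 genes), 11 differed by more than 0.5, and the median difference was 0.14. The starts of the probes are printed because they read different stretches of 1 gene, and their sequence is the array's own, 30 of 60 bases, with positions in GRCh37. Exon and intron positions were not analysed here.
NUPL1, probe used, chr13:25915846-25915905: gccttagccatgatttcgttagtagaccta
NUPL1, second probe, chr13:25910360-25910419: ggtgtaatgtagcagagcttaagaatagaa
NUP98, probe used, chr11:3696747-3696806: ggagggattgatcttcagggctgtttttgt
NUP98, second probe, chr11:3733190-3733249: tggggagattagggcctacattgtttatcg
NUP43, probe used, chr6:150045580-150045639: gtgtgtgagtgggatccaaaacactcaatc
NUP43, second probe, chr6:150057613-150057672: tgagtatttgggatgttagacaaggtacta
The second NUPL1 probe read 0.41 with miR-532-5p, where the probe used read −0.72, and 1.20 with miR-532-3p. The second NUP98 probe read 0.03 with miR-532-5p and −0.64 with miR-125b-1-3p, against −0.55 and −0.11. With the mean over probes, 2 members in place of 4 were lower than −0.5 with miR-532-5p, and NUPL1 was −0.16 there.

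**Figure D4:**
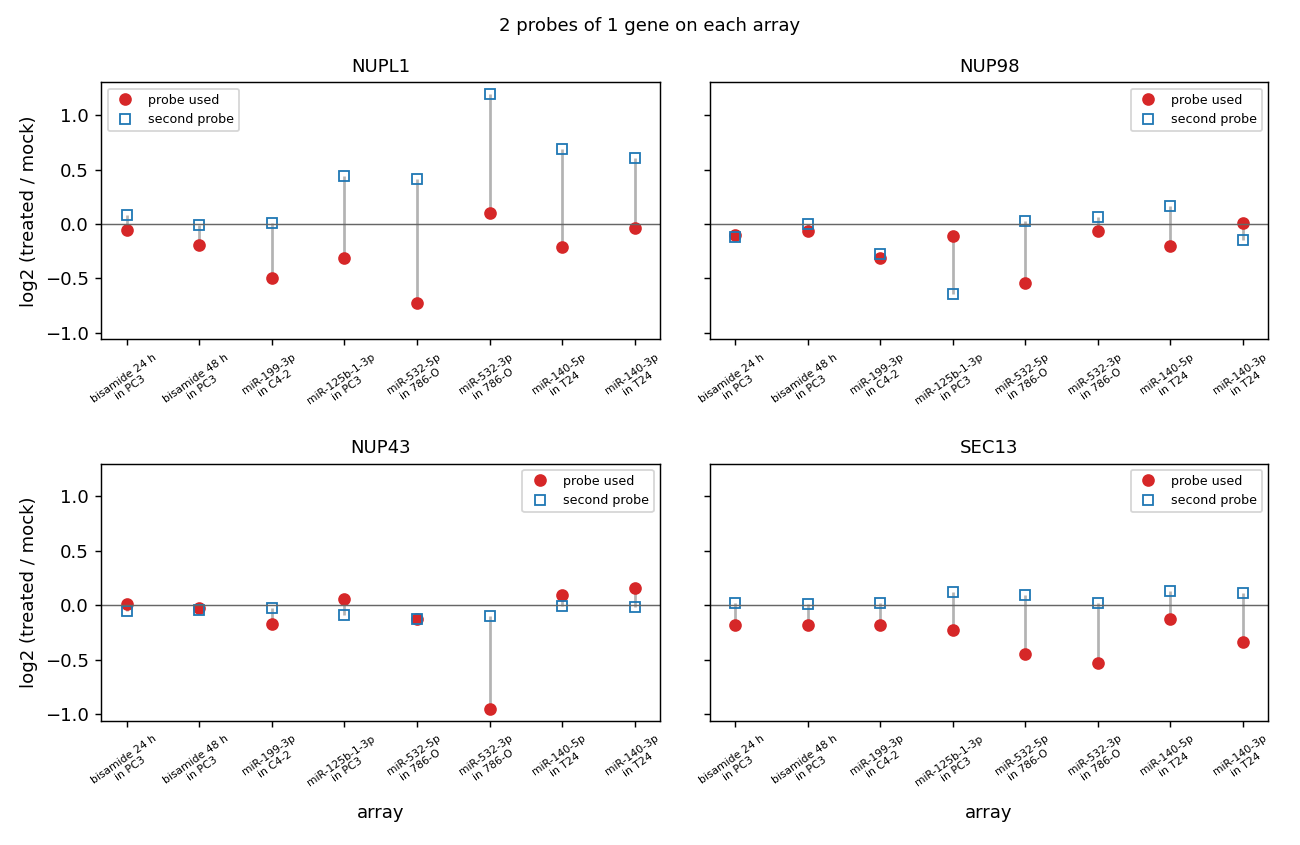
Log2 ratio of treated over mock (vertical axis) on 8 arrays (horizontal axis) for the probe used (filled circle) and a second probe (open square) of NUPL1, NUP98, NUP43 and SEC13, joined by a grey line. The NUPL1 probes are furthest apart with miR-532-5p (−0.72 and 0.41) and miR-532-3p (0.10 and 1.20), and the NUP43 probes differ with miR-532-3p (−0.95 and −0.10).

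Among the membrane nucleoporins, NDC1 lay on both sides of 0. It read −0.34 at 24 h and −0.50 at 48 h of bisamide, −0.19 in C4-2, 0.43 with miR-125b-1-3p, −0.43 and −0.15 with the 5p and 3p strands of miR-532, and 0.40 and −0.16 with those of miR-140. It was the lowest member at 48 h of bisamide and the highest with miR-125b-1-3p, both in PC3. Its 48 h value rested on loess, since raw signal was 741 in mock and 906 in treated cells, and it was −0.22 with median centring.

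NUP210 (gp210) read −0.28 and −0.19 with bisamide, −0.06 in C4-2, 0.29 with miR-125b-1-3p, and −0.80 and −0.13 with the 5p and 3p strands of miR-140. The −0.80 was the only NUP210 value past 0.5, with raw signals of 158 in mock and 112 in treated cells, and it stayed past −0.5 under all 7 alternatives. The probe shared by POM121 and POM121C was the lowest member with miR-125b-1-3p, at −0.48. It read −0.08 and −0.21 with bisamide, 0.05 in C4-2, 0.06 and −0.04 with the 5p and 3p strands of miR-532, and −0.29 and −0.12 with those of miR-140. The other POM121 probe was not well above background.

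On the cytoplasmic face, where export complexes are taken apart, NUP88 was the only member lower than −0.5 on 2 arrays. NUP88 holds NUP214 at the pore. Its ratios were −0.01 and −0.12 with bisamide, −0.56 with miR-199-3p in C4-2, 0.06 with miR-125b-1-3p, −0.53 and 0.11 with the 5p and 3p strands of miR-532 in 786-O, and 0.19 and 0.02 with those of miR-140. The miR-199-3p value was −0.41 with median centring. RAE1, an mRNA export factor, was above 0 on 6 arrays, with 0.19 and 0.14 under bisamide, 0.19 in C4-2, 0.24 with miR-125b-1-3p, 0.49 as the highest member with miR-532-5p and 0.16 with miR-140-5p, and was below 0 with both 3p strands, −0.13 in 786-O and −0.12 in T24. AAAS (ALADIN) was the highest member with miR-140-3p, at 0.33, and lay between −0.21 and 0.01 elsewhere. NUP214, RANBP2 and NUPL2 stayed between −0.26 and 0.19.

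In the nuclear basket, NUP153, which docks the basket to the pore, was the lowest member at 24 h of bisamide (−0.38). It read −0.30 at 48 h, 0.13 in C4-2, −0.05 with miR-125b-1-3p, −0.41 and 0.13 with the 5p and 3p strands of miR-532, and −0.09 and −0.05 with those of miR-140. NUP50, a cofactor of import, lay between −0.20 and 0.27. TPR, the main basket filament, lay between −0.06 and 0.27.

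Arrays of the same line gave different values for the members. In 786-O, 20 of 29 members were lower with miR-532-5p than with miR-532-3p. NUP43 was furthest apart (−0.12 and −0.95). In T24, 18 of 30 were lower with miR-140-5p, and NUP210 was furthest apart (−0.80 and −0.13). The share of all genes lower with the 5p strand was not computed for either pair. These pairs share a mock, so their values are set side by side and not tested. At the 2 bisamide times no member differed by more than 0.28.

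Transport receptors and the Ran system, which use the pore, held larger extremes than the pore on some arrays and not on others. With miR-125b-1-3p that list ran from −0.25 to 0.31, against −0.48 to 0.43 for the pore. With miR-140-5p its lowest value was −0.48, against −0.80. With miR-199-3p, KPNB1, the importin beta gene, was −1.04, and 4 of 30 genes of that list were lower than −0.5 (2.74% of all genes). KPNA2, an importin alpha, was −0.79 at 48 h of bisamide and −1.29 with miR-532-5p, and KPNA6 was −1.01 with miR-532-3p. XPOT, the tRNA exportin, was the highest at both bisamide times, at 0.77 and 0.50. The list medians stayed between −0.11 and 0.02. In the nuclear lamina and envelope list, LMNB1, lamin B1, was the lowest of 14 genes at both bisamide times (−0.41 and −0.57) and with miR-140-5p (−0.80), and LMNA was the lowest with miR-532-3p (−1.06).

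Seed matches in the probes themselves were few. The reverse complement of bases 2 to 7 was searched in the 60 bases of 51 member probes, and no member probe held the longer match to bases 2 to 8. The shorter match was in 1 member probe for miR-532-5p (1.39% of 58201 probes), 2 for miR-532-3p (2.16%), 1 for miR-140-3p (2.01%), and 0 for miR-199-3p (1.56%), miR-125b-1-3p (0.326%) and miR-140-5p (1.55%). The SEC13 probe holds that for miR-532-5p, where SEC13 read −0.44, the NDC1 probe that for miR-532-3p, where NDC1 read −0.15, and the RANBP2 probe that for miR-140-3p, where RANBP2 read −0.23. The other match for miR-532-3p lies in a SEC13 probe that was not used. They are printed with the match in capitals. Whole transcripts were not searched here.
SEC13, for miR-532-5p: ttgggttcAGGCATtatttggg
NDC1, for miR-532-3p: tactttaaTGGGAGaaatcatg
RANBP2, for miR-140-3p: atcactgaTGTGGTctaaaccc

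Promoters from RefSeq (GRCh38.p14, 250 bases before to 50 after the start) matched 29 of 31 members, all but NUP43 and AHCTF1. The heat shock element letters GAANNTTC or TTCNNGAA, on both strands, were in 3 of 29 member promoters (10.3%) and in 13.7% of 27305 promoters. The ETS letters CCGGAAG were in 13 of 29 (44.8%) against 10.7%. The CCAAT letters were in 11 (37.9% against 35.7%), the NRF1 letters CGCATGCG in 3 (10.3% against 2.19%), and the E2F letters TTTCGCGC, TTTGGCGC or TTTCCCGC in 1 (3.45% against 2.79%). The table of all promoters includes noncoding genes. The 3 heat shock element stretches are printed because bisamide acts on the HSF1 pathway, with the letters in capitals, and a match is a description of letters and not a site.
NUP160, chr11:47848527-47848556, minus strand: gccggccactgGAAGGTTCccgcagataga
AAAS, chr12:53321793-53321822, minus strand: gggagaaggtgTTCGGGAAttcggagctgg
NUP93, chr16:56729898-56729927, plus strand: aacttagggaaTTCTGGAAtcgctttctcc
With bisamide at 24 h and 48 h these members read −0.15 and −0.28 (NUP160), −0.01 and −0.07 (AAAS) and −0.22 and −0.15 (NUP93). The ETS letters were absent for NDC1, NUP98 and NUP210, which were lower than −0.5 on an array. They were present for NUP35, POM121, NUP214, NUP160, NUP107, SEH1L and NUP50, which were not lower than −0.5 on any array, and for POM121C. They are shown for members lower than −0.5 on an array that hold them, and NUP54 holds them at 2 positions.
SEC13, chr3:10321113-10321142, minus strand: gcccgtcgggcccggcgCCGGAAGtgagct
NUP54, chr4:76148550-76148579, minus strand: tgtgaagcccaCCGGAAGtgagctggctgg
NUP54, chr4:76148489-76148518, minus strand: gcccttggcgcCTTCCGGcctcttaggcta
NUP37, chr12:102120115-102120144, minus strand: gcgctcgccctccgacCCGGAAGcagagcc
NUPL1, chr13:25301548-25301577, plus strand: tgacggttacaCTTCCGGcgggctacgtgc
NUP88, chr17:5419743-5419772, minus strand: agcctctcgagCTTCCGGgccgtctgctcg

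Pore gene levels differed between the mock cells of the lines. The comparison asks which pore genes the lines hold at different levels before treatment. Fewer cells that hold an RNA and less of that RNA per cell cannot be told apart in it. Levels are log2 Cy3 signals after background correction with an offset of 50 and quantile scaling, and only values of 1 probe are compared. The offset damps the differences and the spread of dim probes. Over the 3 PC3 mocks the members' SD had a median of 0.12, from 0.03 for NUPL1 to 0.28 for NUP93. The 2 hybridisations of 1 mock differed by at most 0.24 in 786-O and 0.12 in T24. Of 30 members, T24 held the highest mean of the 4 lines in 17, PC3 in 7, 786-O in 4 and C4-2 in 2, and C4-2 held the lowest in 19. This ranking was not made for all genes, and each line but PC3 is 1 sample. Called or not, 7 of 30 members lay above PC3 in C4-2 (49.8% of all genes). In 786-O 14 did (47.4%), and in T24 20 (50.7%).

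**Figure D5:**
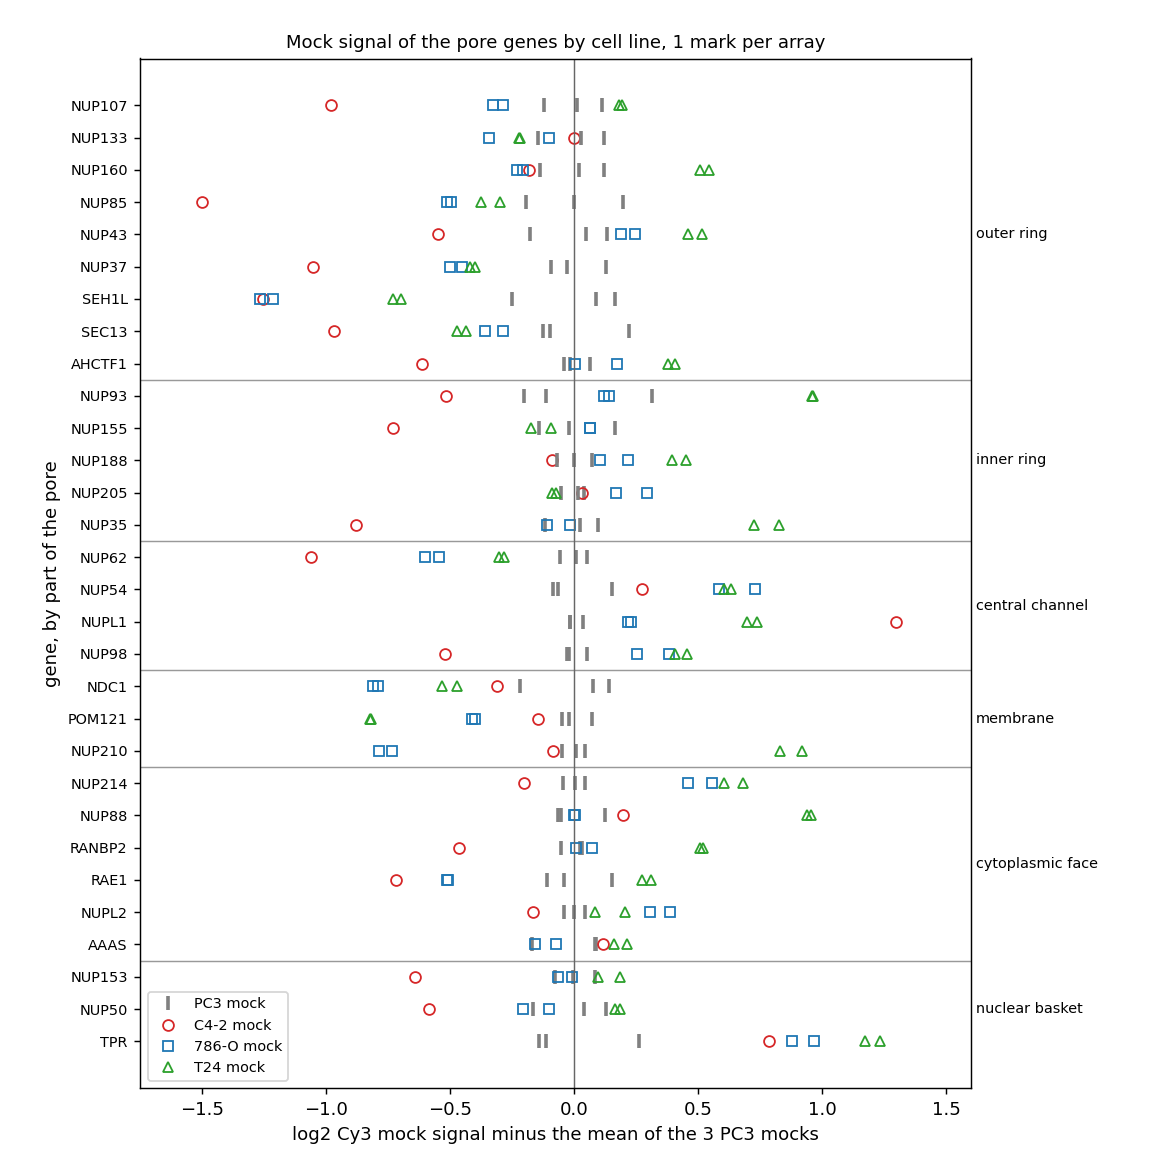
Log2 Cy3 mock signal minus the mean of the 3 PC3 mocks (horizontal axis) for 30 pore genes (vertical axis, by part of the pore), 1 mark for each array: grey bars PC3, red circles C4-2, blue squares 786-O and green triangles T24. Most C4-2 circles lie left of the PC3 bars, to −1.5 for NUP85, most T24 triangles of the cytoplasmic face lie to the right, and TPR lies to the right in all 3 lines.

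In C4-2, 15 of 30 members were lower than in PC3 (limma, Benjamini-Hochberg over all genes), where 23.9% of all genes were, and 2 were higher (26.8%). The members' median difference was −0.49 and that of all genes was 0.00. The outer ring stood lowest, with 7 of 9 lower and a median of −0.97. NUP85 was 9.58, 9.38 and 9.18 in the PC3 mocks and 7.88 in C4-2, a difference of −1.5 (SE 0.17, 2.83-fold lower, limma adjusted p = 0.00614). SEH1L was 9.34, 9.27 and 8.93 against 7.93 (−1.26, SE 0.19, adjusted p = 0.0118). NUP62, the core repeat protein of the channel, was 11.46, 11.57 and 11.53 against 10.46 (−1.06, SE 0.07, adjusted p = 0.00185). All 3 lay outside the range of the PC3 mocks.

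The exceptions in C4-2 were NUPL1 and TPR. NUPL1 was 8.45 in C4-2 and 7.18, 7.13 and 7.13 in PC3 (1.30, SE 0.05, 2.46-fold higher, adjusted p = 0.000974). TPR was 9.13 against 8.20, 8.23 and 8.60 (0.79, SE 0.20, adjusted p = 0.0385). The NUPL1 level is that of the probe used, whose ratios disagreed with those of its second probe. With the mean over probes the members' median in C4-2 was −0.27. The scaling set the size of all these differences. With each array's 75th percentile taken off in place of quantile scaling, 24 members were lower and 1 higher with a median of −0.93, NUP85 was −2.26, SEH1L −2.02, NUP62 −1.87, NUPL1 0.68 and TPR 0.01. The TPR adjusted p was 0.0955 and 0.101 without the PC3 mock of the bisamide 24 h or 48 h array. Without the PC3 mock of the miR-125b-1-3p array, whose EPCAM signal differs, 18 members were called, as were 54.2% of all genes. With the 75th percentile 61.3% of all genes were called. In C4-2, 0 of 3 membrane members and 2 of 6 of the cytoplasmic face were lower. Cell cycle genes moved with this contrast, since 10 of 18 were lower in C4-2 and 0 were higher (median −0.52), with TYMS at −2.41, and 14 of 33 genes of the transport list were lower and 2 higher, with KPNA2 at −1.81. Their part was not tested. LMNA, the lamin A gene, was at −2.45.

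In 786-O, 7 members were lower (17.8% of all genes) and 6 higher (19.6%), with a median of −0.05. SEH1L was 7.91 and 7.97 in 786-O (−1.24, SE 0.19, adjusted p = 0.0169), as low as in C4-2. NDC1 was 8.53 and 8.50 against 9.39, 9.10 and 9.46 in PC3 (−0.80, SE 0.17, adjusted p = 0.0334). All 3 membrane members measured were lower. NUP210 was not well above background on either 786-O array, so PC3 was at least 1.61-fold higher, a bound that was not tested. The measured means were 5.75 in 786-O and 6.51 in PC3. The bound takes for 786-O the higher of its own signal and the lowest signal well above background on each array. TPR (9.22 and 9.31, difference 0.92, SE 0.20, adjusted p = 0.0341), NUP54 (8.38 and 8.53, 0.66, SE 0.12, adjusted p = 0.0244) and NUP214 (7.14 and 7.04, 0.51, SE 0.06, adjusted p = 0.01) were the highest against PC3. The split of these calls depended on the scaling, since with each array's 75th percentile taken off, 21 members were lower and 0 higher, with a median of −0.71 against −0.05 for all genes. TPR was 0.11, NUP214 0.22 and NUP54 −0.05 there, with 0 of these 3 called. Of all genes 58.9% were called there. Without the PC3 mocks of the bisamide 24 h, 48 h and miR-125b-1-3p arrays in turn, 21.4%, 20.6% and 42.6% of all genes were. Without the PC3 mock of the bisamide 24 h array 4 members were called (SEH1L adjusted p = 0.0511, NDC1 0.0996, TPR 0.0899), without that of the 48 h array 4 (SEH1L 0.0615, TPR 0.0956, NUP54 0.0738), and without that of the miR-125b-1-3p array 13.

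In the T24 mocks, whose markers went against the label, 12 members were higher than in PC3 (18.4% of all genes) and 2 lower (14.4%), with a median of 0.24. TPR was 9.51 and 9.57 (1.20, SE 0.20, adjusted p = 0.0212), higher than in PC3 in each of the 3 lines. NUP88 was 9.18 and 9.20 against 8.37, 8.19 and 8.18 (0.94, SE 0.10, adjusted p = 0.00933). NUP210 was 7.43 and 7.34 against 6.46, 6.51 and 6.55 (0.87, SE 0.06, adjusted p = 0.00455). POM121 was 7.37 on both arrays against 8.17, 8.14 and 8.26 (−0.82, SE 0.07, adjusted p = 0.00622), and NUP62 was 11.22 and 11.23 (−0.29, SE 0.07, adjusted p = 0.0422). In the cytoplasmic face 3 of 6 were higher and in the central channel 3 of 4, while in the outer ring 2 of 9 were. Without the PC3 mock of the bisamide 24 h array 9 members were called (TPR adjusted p = 0.0655), without that of the 48 h array 8 (TPR 0.07), and without that of the miR-125b-1-3p array 16. The NUP62 call was lost without any 1 of the 3 (adjusted p 0.0649 to 0.119). With the 75th percentile taken off 9 were higher and 5 lower. The share of all genes called was 33.5% there, and 17.7%, 16.1% and 38.2% without these 3 PC3 mocks in turn. In T24, 5 of 18 cell cycle genes were higher and 1 lower, and 6 of 33 transport genes were lower and 3 higher.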

How the data were processed

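RNA from 4 human cell lines was hybridised to 8 Agilent 2-colour arrays, mock RNA in Cy3 and treated RNA in Cy5, on 1 slide. The authors deposited scanner output of Feature Extraction 11.5.1.1 for each array. Per the file headers the mean and local background values are spot intensity on a linear scale, and the deposited log10 ratio of red over green is background-subtracted and dye-normalised by the scanner software. The deposited series value table held the same log10 ratio. Probe positions are in GRCh37.

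From these intensities, log2 ratios were computed with limma 3.58.1 in R 4.3.3, with normexp background correction (offset 50) and loess within each array. A gene took its probe of highest mean intensity, and only values well above background in Cy3 and Cy5 were used. With 1 array in each group no test of a ratio was possible, and a log2 ratio past 0.5 in size was counted.

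Mock levels were the Cy3 signals after normexp and quantile scaling. Both 786-O mocks carry 1 code in the deposited naming, as do both T24 mocks, so each pair was averaged. C4-2, 786-O and T24 (n = 1 each) were compared with PC3 (n = 3) by limma over 20447 genes, with Benjamini-Hochberg adjustment and a threshold of 0.05, after a test on simulated data. The residual degrees of freedom came from the PC3 mocks alone, so the lone samples were assumed to vary like them. Nothing in the labels says that the PC3 mocks came from separate cultures, so p-values measure only the spread between these samples. The number of arrays limits the precision.

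The members and gene lists were chosen with earlier results of these data known. Values on every array are given for the lowest and highest member on each array, members past 0.5 on 2 or more arrays, members measured on fewer than 8 arrays and, for each mock comparison, up to 3 members called in each direction with the largest difference. Genes of other lists are named only as the lowest or highest of their list, and other genes outside this rule were named after their values were seen. Alternatives to background correction, normalisation, probe choice, filter, threshold, scaling and sample set were computed. Fold changes and p-values of the authors were not used.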

Additional observations from a re-analysis of the deposited data

Results flagged for a closer look

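Second probes of members, outside the values used above, read past 0.5 in size on 4 occasions. The second NUP98 probe read −0.64 with miR-125b-1-3p. The second NUPL1 probe read 1.20 with miR-532-3p, and 0.69 and 0.61 with the 5p and 3p strands of miR-140, and was above mock on all 6 miRNA arrays. NUP133 was on opposite sides of 0 at the bisamide times, and its 48 h value exceeded its 24 h value by 0.28, a difference that was not tested. Both other NUP133 probes measured at both times differed less (−0.02 and −0.07, and 0.03 and 0.05).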

How the results depend on the processing

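Counts below are of pore genes past the threshold, and medians are of the pore genes minus all genes. No paired analysis was possible because the labels number no replicates. Direction and counts rested most on the dye normalisation. With median centring the medians were 0.12 and 0.0758 under bisamide at 24 h and 48 h, 0.0249 in C4-2, 0.21 for miR-125b-1-3p, −0.15 and 0.16 with the 5p and 3p strands of miR-532, and 0.20 and 0.21 with those of miR-140, against −0.11, −0.12, −0.04, −0.01, −0.09, 0.03, −0.07 and −0.06 with loess. The counts were then 1 and 2 under bisamide, 2 in C4-2, 3 for miR-125b-1-3p, 5 for miR-532-3p, and 5 and 3 for miR-140. Under the other alternatives every median had the sign it had with loess, with these exceptions. That of miR-125b-1-3p was 0.051 relative to each gene's median over the other miRNA arrays, and 0.000444 without a filter. That of miR-532-3p was −0.00158 without a filter. Background correction moved counts more than medians. With plain subtraction, an offset of 0 and the scanner's ratio, 1 member passed at 24 h of bisamide, 1 on the miR-125b-1-3p array, 1 for miR-140-3p and 7 for miR-532-5p, while 6, 5 and 7 passed for miR-532-3p and 4, 4 and 3 in C4-2. Without background correction the counts were 3 in C4-2, 1 for miR-125b-1-3p, 7 for miR-532-5p and 1 for miR-140-3p. The 48 h bisamide median was −0.17 with subtraction, −0.17 with an offset of 0 and −0.16 with the scanner's ratio, the miR-199-3p median −0.10, −0.10 and −0.12, and the miR-532-5p median −0.15 with an offset of 0. With the mean over probes 2 members passed with miR-532-5p and the miR-140-5p median was −0.0163. Relative to each gene's median over the other miRNA arrays, the medians were −0.0436 at 24 h of bisamide, −0.21 for miR-532-5p, and −0.0307 and −0.0134 for miR-140. There 0 members passed at 48 h of bisamide, 1 for miR-125b-1-3p, 2 for miR-532-5p and 3 for miR-140-5p. At a threshold of 0.3 the counts were 3 and 2 under bisamide, 6 in C4-2, 3 for miR-125b-1-3p, 8 and 7 for miR-532, and 5 and 4 for miR-140. At 1.0 and at 1.5 they were 0 on all arrays. Under the looser filters the 16 counts and medians moved by less than 1.5 times or the repeat-spot SD. In the mock comparison of 786-O with PC3, 13 members were called, and 21 with the 75th percentile (NUP54 at −0.0546 and NUPL1 at −0.24, turned in sign), 7 with the processed green signal and 7 with an offset of 0. For T24 14 were called, and 22 with every mock array counted as a sample. Without 1 PC3 mock the counts ran from 14 to 18 for C4-2, from 4 to 13 for 786-O and from 8 to 16 for T24. The share of all genes called moved with these settings too. For 786-O it was 37.4%, and 58.9% with the 75th percentile, 42.9% with the processed green signal and 44.4% with an offset of 0. For T24 it was 32.8%, and 56.5% with every mock array counted. Without 1 PC3 mock it ran from 35.5% to 54.2% for C4-2, from 20.6% to 42.6% for 786-O and from 16.1% to 38.2% for T24. Protein sequence features were not run. Weak signal limits NUP210, RANBP2, NUP188 and AHCTF1, whose lowest raw mock signals were 21.5, 30.1, 32.0 and 34.0.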
